A study of Homo sapiens with 6 samples.

Results

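The serglycin locus on human chromosome 10 holds *STOX1*, *DDX50*, *DDX21*, *KIAA1279*, *SRGN*, *VPS26A*, *SUPV3L1* and *HKDC1*, in this order along the chromosome. These 8 genes, of the 30017 genes in the count table, were chosen by their symbols, with the knowledge that *SRGN* was lower and *KIAA1279* higher after CTCF depletion. The values of these genes in the comparison of CTCF-depleted with control cells are therefore a description and were not tested. The cells were BLaER1-CTCF-mAID, a single subclone of a human B cell leukemia line in which a CEBPA transgene drives conversion into induced macrophages (iMacs) once estradiol and the cytokines IL-3 and CSF-1 are added. In this subclone, the CTCF protein is fused to a degron and is degraded when an auxin, indole-3-acetic acid (IAA), is added. RNA-seq gave 6 libraries: 2 untreated libraries at 0 h, 2 libraries 96 h after induction without IAA (96 h control) and 2 libraries at 96 h with IAA added together with the differentiation factors (96 h CTCF-depleted). All 3 groups carry the degron, and a line without it treated with IAA is not part of the comparison, and an effect of IAA as such cannot be told apart from that of CTCF depletion.

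The product of *SRGN*, serglycin, is the core protein of a proteoglycan in the secretory granules of blood cells. Its chondroitin sulfate or heparin chains are attached in the Golgi and bind positively charged cargo such as proteases and chemokines, and macrophages secrete it. CTCF is a zinc-finger protein that binds DNA and stalls cohesin as it extrudes chromatin loops, which sets the borders of the domains within which enhancers and promoters meet. The neighbours of *SRGN* have unrelated functions. *KIAA1279*, now named *KIFBP*, encodes a protein that binds kinesin motors. *DDX21* and *DDX50* encode related nucleolar RNA helicases, *VPS26A* a subunit of the retromer complex that returns receptors from endosomes, and *SUPV3L1* an RNA helicase of mitochondria. *HKDC1* encodes a hexokinase-like protein and *STOX1* a DNA-binding protein of the winged helix type.

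All 8 genes lie on the plus strand of chromosome 10 (chr10:68827531-69267552, hg38, GENCODE release 44) within 440.0 kb. *KIAA1279* (chr10:68988803-69043544) and *SRGN* (chr10:69088103-69104805) are separated by 44.6 kb without another gene of the group, the widest gap between neighbours in the locus. The other gaps range from 3.73 kb, between *DDX21* and *KIAA1279*, to 18.7 kb, between *SRGN* and *VPS26A*. No exon of these genes overlaps an exon of another gene, except for 143 bases of *HKDC1* that overlap an antisense gene. *DDX21* and *DDX50* share 0 of their 50-base exon windows, as do *HKDC1* and the adjacent *HK1*, so that exact matches do not place reads of one gene on the other over that length.

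Of the 8 genes, 6 have a promoter in the RefSeq table for hg38, with 7 windows in all because *DDX21* has 2. *SRGN* and *VPS26A* have none. The 250 bases upstream of the *KIAA1279* start (chr10:68988553-68988802, plus strand, 5′ to 3′) are shown because this gene had the largest rise of the locus in CTCF-depleted cells. Capitals mark AGGGGGC, a core of the CTCF motif, which begins 221 bases upstream of the start.
KIAA1279 upstream: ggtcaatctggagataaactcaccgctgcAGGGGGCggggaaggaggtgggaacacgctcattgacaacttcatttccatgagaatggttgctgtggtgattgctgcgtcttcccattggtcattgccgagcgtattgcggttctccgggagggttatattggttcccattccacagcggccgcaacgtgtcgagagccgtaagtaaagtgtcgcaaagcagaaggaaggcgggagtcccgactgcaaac
The letters AGGGGGC, searched on both strands, occur in 14.4% of 35116 RefSeq promoter windows of 300 bases. A longer core, made of CC, any 3 bases, AGG, any base and GGC, occurs in 4.64% of the same windows and was not found in that of *KIAA1279*. The window of *STOX1* holds both motifs, with the longer core beginning 207 bases upstream of the start. Neither motif was found in the windows of *DDX50*, *DDX21*, *SUPV3L1* and *HKDC1*. A match to these letters is a description of the sequence and does not show that CTCF binds there.

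Within the span of the 8 genes, the longer core occurs 9 times on either strand, which is 2.05 per 100 kb compared to 2.51 per 100 kb on the whole of chromosome 10. The pattern was chosen after a stricter form of the motif had given no match. The 3 matches between the start of *KIAA1279* and the start of *SRGN* are shown with 8 bases on each side, since they lie between the promoters of the genes that moved apart. All are on the minus strand, read 5′ to 3′, and capitals mark the motif.
KIAA1279 exon, chr10:69007444-69007455: tcttatgcCCTCTAGGTGGCtggtaaat
KIAA1279 intron, chr10:69019109-69019120: gcgtgaacCCAGGAGGTGGCgcttgcag
Between KIAA1279 and SRGN, chr10:69051203-69051214: gctccagtCCCACAGGTGGCcaaagatc
The exon of the first match belongs to a transcript that GENCODE classes as a retained intron. The other 6 matches fall in *STOX1* (2 in exons and 2 in introns) and in introns of *DDX50* and *DDX21*, with 1 match each.

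Total counts ranged from 9273470 to 12718780 per library. After a filter on low counts, 14758 genes were tested, among them 7 of the 8 locus genes; *HKDC1* was not tested, and *STOX1* passed only through its counts at 0 h. Levels are given as counts per 1000000 counts of the library (CPM), scaled by edgeR's TMM factors. Genes were called where edgeR's quasi-likelihood test gave an adjusted p under 0.01 and the log2 fold change exceeded 0.6 in either direction. With 2 libraries in each group, the smallest two-sided p of an exact permutation test is 0.333, and the p-values here depend on the spread that edgeR estimates over all genes. The labelled conversion was visible in marker genes. All 7 B cell markers were detected in every library, and their summed level was between 2484 and 2496 CPM at 0 h, 388 and 394 CPM at 96 h in control cells and 339.998 and 356 CPM in CTCF-depleted cells. The 6 macrophage markers summed to between 33.2 and 36.2 CPM at 0 h, 6042 and 6267 CPM in control cells and 5300.03 and 5374 CPM in CTCF-depleted cells. At 0 h, 4 of them had under 4 counts in replicate 1, and 1 in replicate 2.

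*SRGN* was the gene of the locus that changed most during conversion. It had 181 and 229 counts at 0 h (17.9 ± 1.06 CPM, SD, n = 2), 21829 and 20384 counts in control cells at 96 h (1907 ± 27.5 CPM) and 13918 and 13470 counts in CTCF-depleted cells (1265 ± 33.8 CPM). The 3 groups did not overlap, and CTCF-depleted cells lay far closer to control cells than to cells at 0 h. In control cells, *SRGN* rose 106-fold (6.74 ± 0.07 on the log2 scale, SE; adjusted p = 7.36e-60, edgeR), and 335 of the 14758 genes tested had a higher log2 fold change. The choice of *SRGN* used the same control libraries and favours high values in them, so that this p is not independent of it either. By counts per gene, *SRGN* ranked 7835 and 8063 in the 0 h libraries, 22 in each of the control libraries, and 36 and 37 after CTCF depletion. RNA was measured in bulk, so that fewer cells of a type and less RNA per cell cannot be told apart.

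After CTCF depletion, the level of *SRGN* was 1.51-fold lower than in control cells, a log2 difference of -0.59 (standard error 0.05). Relative to 0 h, it was still higher by a log2 fold change of 6.15 (standard error 0.07) in CTCF-depleted cells. The value of -0.59 lies just inside the fold threshold of 0.6, and 1611 of the genes tested had a lower value in this comparison. The summed macrophage markers were also lower in both CTCF-depleted libraries than in both control libraries, as given above, and their part in the *SRGN* difference was not tested. Markers of other cells that store serglycin summed to at most 25.4 CPM in any library, but each sum was higher at 96 h than at 0 h. Those of mast cells had no count at 0 h and summed to at most 1.85 CPM at 96 h. Those of T and NK cells summed to at most 1.28 CPM at 0 h and 5.46 CPM at 96 h. Those of neutrophil granules summed to at most 0.300 CPM at 0 h. At 96 h, they summed to between 22.7 and 25.4 CPM in control and 22.6 and 24.1 CPM in CTCF-depleted cells. The part of these markers in the rise of *SRGN* was not tested.

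*KIAA1279* moved in the opposite direction to *SRGN* in both comparisons. It had 148 and 196 counts at 0 h, 102 and 65 counts in control cells at 96 h, and 453 and 455 counts in CTCF-depleted cells. The corresponding levels were 15.3 and 14.7 CPM at 0 h, 9.002 and 6.02 CPM in control cells, and 41.9 CPM in both CTCF-depleted libraries. The groups did not overlap, and the control libraries, which differ from each other most, are the lowest. During conversion in control cells, *KIAA1279* fell by 0.99 on the log2 scale (standard error 0.15, adjusted p = 4.14e-08, edgeR). This test uses the same control libraries as the comparison by which the gene was chosen, and that choice favours low values in them, so that the p is not independent of the choice. In CTCF-depleted cells, its level was 5.58-fold that in control cells, a log2 difference of 2.47 (standard error 0.13), and 85 of the 14758 genes tested had a higher value. The level in CTCF-depleted cells was also above that at 0 h, 2.80-fold, so that it did not return to the level of the B cells but lay beyond it.

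**Figure D1:**
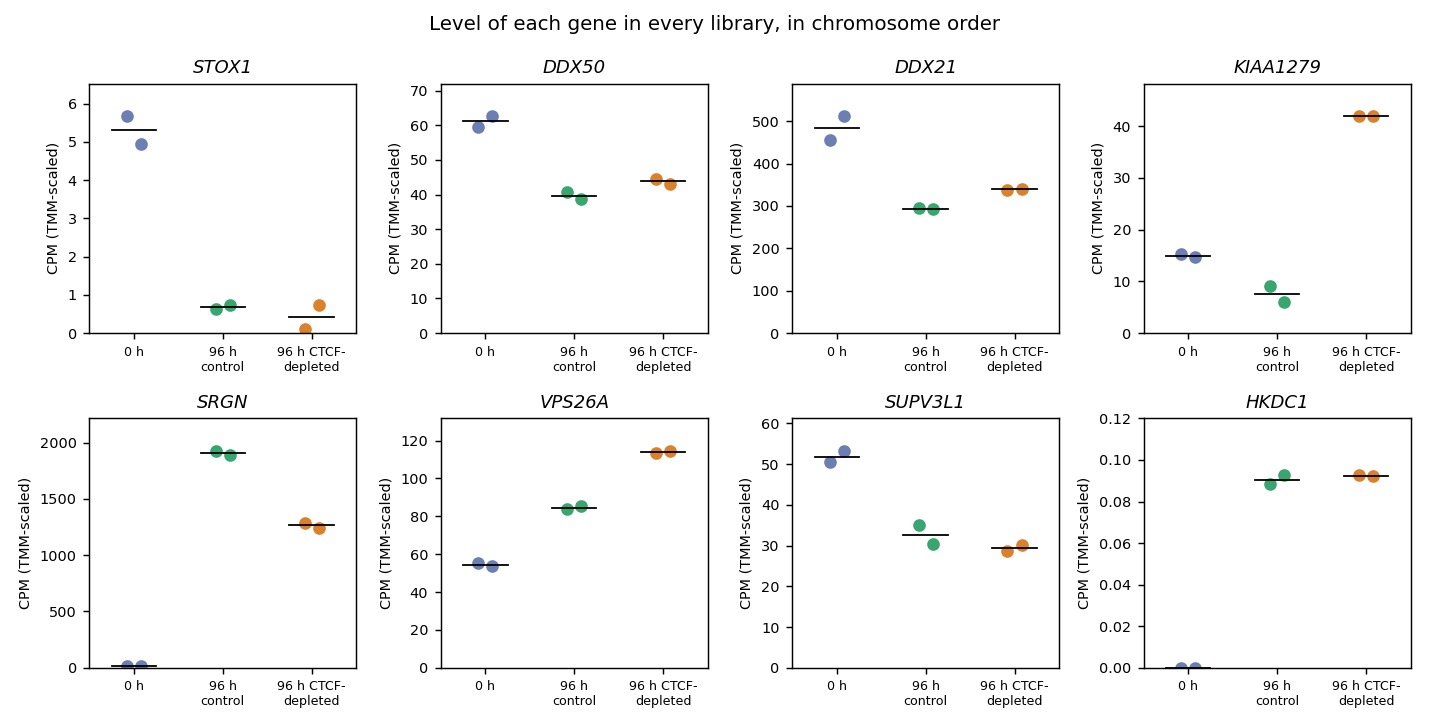
Level of each of the 8 genes (y axes, TMM-scaled CPM, each from 0) in the 2 libraries of each group (points) with the group mean (line), in chromosome order. *SRGN* is at 1927 and 1888 CPM in control and at 1289 and 1241 CPM in CTCF-depleted libraries, whereas *KIAA1279* is at 9.002 and 6.02 CPM in control and at 41.9 CPM in both CTCF-depleted libraries.

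*DDX21*, which unwinds RNA in the nucleolus and takes part in ribosome production, is the neighbour of *KIAA1279* on the side away from *SRGN*. It had 4408 and 6825 counts at 0 h (483 ± 40.4 CPM), 3340 and 3152 counts in control cells (293 ± 2.04 CPM) and 3654 and 3697 counts in CTCF-depleted cells (339 ± 1.58 CPM). It fell during conversion, by 0.72 on the log2 scale (standard error 0.05, adjusted p = 3.30e-20, edgeR). In CTCF-depleted cells, *DDX21* was slightly higher than in control cells in both libraries, with a log2 difference of 0.21 (standard error 0.05).

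*DDX50*, its related neighbour, showed the same order of groups at a lower level. Its counts were 578 and 835 at 0 h, 462 and 417 in control cells and 481 and 468 in CTCF-depleted cells, that is 61.1 ± 2.13, 39.7 ± 1.53 and 43.8 ± 1.01 CPM. *DDX50* fell by 0.62 on the log2 scale during conversion (standard error 0.08, adjusted p = 4.44e-10, edgeR), close to the fold threshold. The log2 difference after CTCF depletion was 0.14 (standard error 0.08), without overlap between the groups.

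*STOX1*, at the left end of the locus, had 55 and 66 counts at 0 h, 7 and 8 counts in control cells and 1 and 8 counts in CTCF-depleted cells. The control and CTCF-depleted libraries overlap, and none of them is above 0.741 CPM. The log2 difference between control cells and 0 h was -2.94 (standard error 0.39). It is given without a p, since *STOX1* passed the filter on low counts only because it was high at 0 h, so that it had to be lower at 96 h. The log2 difference after CTCF depletion was -0.69 (standard error 0.66), with a 95% interval from -1.99 to 0.61. It rests on 1 library: without CTCF-depleted replicate 1 the difference was 0.16, and without replicate 2 it was -2.70. A change of *STOX1* between these groups was not detectable at this depth.

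On the other side of *SRGN*, *VPS26A* was the neighbour that rose in control cells. It had 535 and 717 counts at 0 h (54.5 ± 0.996 CPM), 948 and 924 counts in control cells (84.6 ± 1.34 CPM) and 1226 and 1243 counts in CTCF-depleted cells (114.0 ± 0.698 CPM). The groups did not overlap, and the CTCF-depleted libraries were the highest. *VPS26A* rose 1.55-fold during conversion, which is 0.64 ± 0.07 on the log2 scale (SE, adjusted p = 8.64e-12, edgeR). This is close to the fold threshold, and without 0 h replicate 2 the value of 0.57 was below it. After CTCF depletion, its level was 1.35-fold that in control cells, a log2 difference of 0.43 (standard error 0.07), and 2.09-fold that at 0 h.

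*SUPV3L1*, which degrades RNA in mitochondria together with the nuclease PNPT1, fell during conversion. Its counts were 489 and 710 at 0 h (51.8 ± 1.99 CPM), 396 and 327 in control cells (32.6 ± 3.30 CPM) and 311 and 326 in CTCF-depleted cells (29.4 ± 0.873 CPM). The log2 fold change was -0.67 (standard error 0.08, adjusted p = 1.74e-10, edgeR). After CTCF depletion, the log2 difference was -0.15 (standard error 0.09), with both CTCF-depleted libraries just below the lower control library. The last gene of the locus, *HKDC1*, had no count in either 0 h library and 1 count in each library at 96 h. It was not detectable at this depth, for which at most 3 counts per library were taken as the limit.

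In the comparison of control cells at 96 h with cells at 0 h, 2 of the 7 genes in the fit were called higher (*SRGN* and *VPS26A*) and 5 lower (*DDX50*, *DDX21*, *KIAA1279*, *SUPV3L1* and *STOX1*). Over all genes tested, 25.4% were called higher and 22.9% lower. The counts are a description: the filter fixed the direction of *STOX1*, and the choice of *KIAA1279* and *SRGN* used the same control libraries. When control replicate 2 was left out, the lower calls dropped to 3, as *DDX50* and *SUPV3L1* had log2 fold changes of -0.58 and -0.57. In the comparison of CTCF-depleted with control cells, *KIAA1279* was higher by more than the fold threshold and *STOX1* lower, and the other 5 tested genes stayed within it. Without a test, 9.15% of all genes tested lay above the threshold and 10.8% below it. Since the locus was chosen by this comparison, nothing is read from these counts. Both comparisons share the control libraries.

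**Figure D2:**
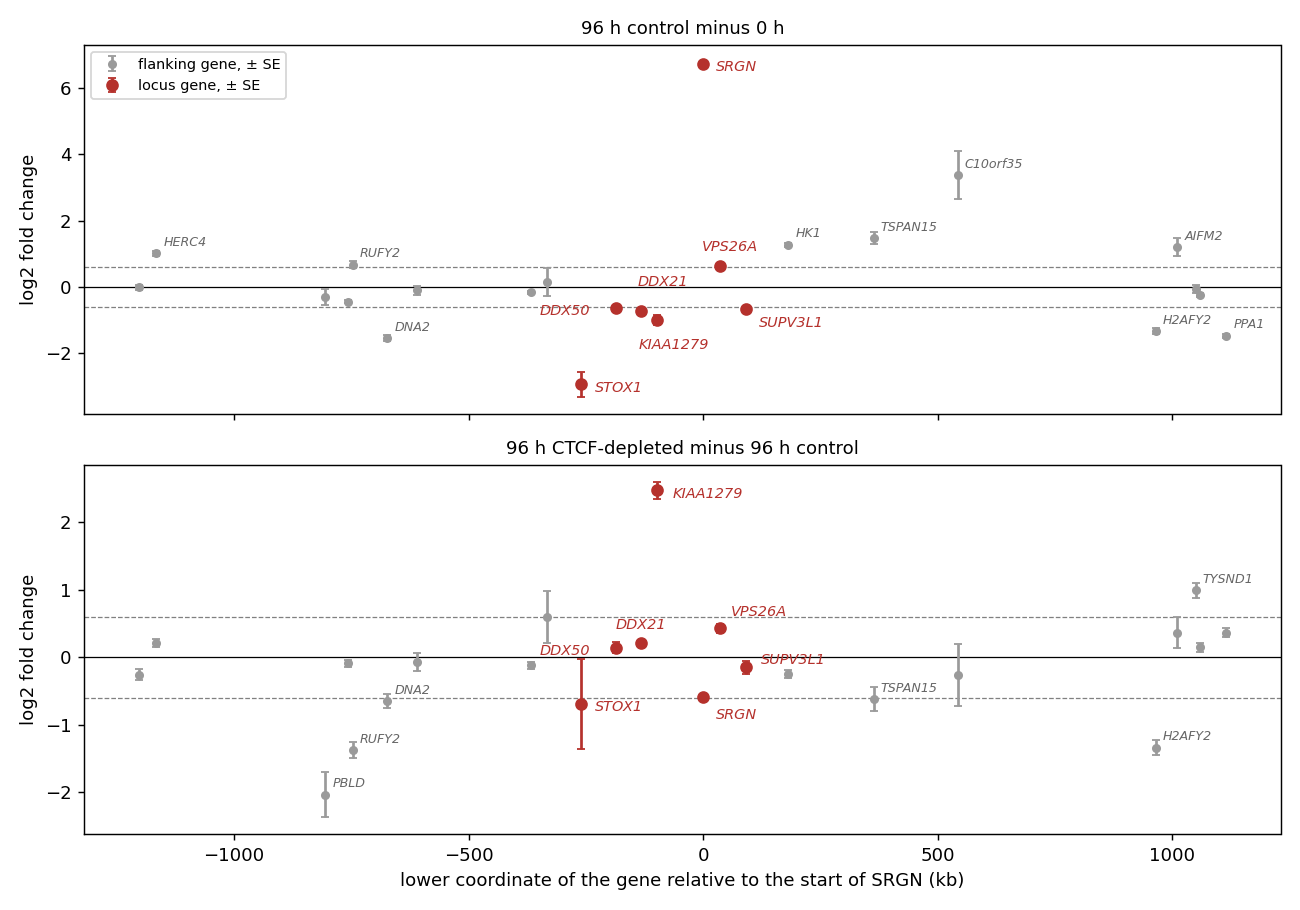
Log2 fold change (y axis) of the 7 tested locus genes (red) and the 17 tested flanking genes within 1 Mb (grey) against the distance of the gene's lower coordinate from the start of *SRGN* in kb (x axis), for conversion in control cells (top) and CTCF depletion at 96 h (bottom). Bars are standard errors, dashed lines the fold threshold of 0.6, and grey names mark flanking genes that were called. *SRGN* lies at 6.74 in the top panel and at -0.59 in the bottom panel, where *KIAA1279* lies at 2.47, above all other genes shown.

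Levels of different genes were compared per kb of merged exon. At 0 h, *DDX21* was the highest gene of the locus with 52.1 CPM per kb, followed by *DDX50* with 22.8, *SRGN* with 14.7, *SUPV3L1* with 12.1 and *VPS26A* with 10.6 CPM per kb. *KIAA1279*, with 2.04 CPM per kb, and *STOX1*, with 1.36 CPM per kb, were far lower. In control cells at 96 h, *SRGN* was at the top with 1567 ± 22.6 CPM per kb, 49.5-fold the level of *DDX21* at 31.6 ± 0.220 CPM per kb. The order then was *VPS26A* (16.5), *DDX50* (14.8), *SUPV3L1* (7.62), *KIAA1279* (1.02), *STOX1* (0.174) and *HKDC1* (0.0214 CPM per kb).

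In CTCF-depleted cells, this order was the same as in control cells, but the distances between genes changed. *SRGN* was at 1039 ± 27.8 CPM per kb, 28.4-fold the level of *DDX21* at 36.6 CPM per kb. *KIAA1279* reached 5.71 CPM per kb and lay next to *SUPV3L1* at 6.87 ± 0.204 CPM per kb. Libraries of neighbours in the order did not overlap in any group, but the order of *STOX1* and *HKDC1* at 96 h rests on at most 8 counts per library. *SRGN* took 2.61% ± 0.311 of the counts of the 8 genes at 0 h, 80.6% ± 0.0317 in control cells and 68.96% ± 0.670 in CTCF-depleted cells (SD, n = 2 each).

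**Figure D3:**
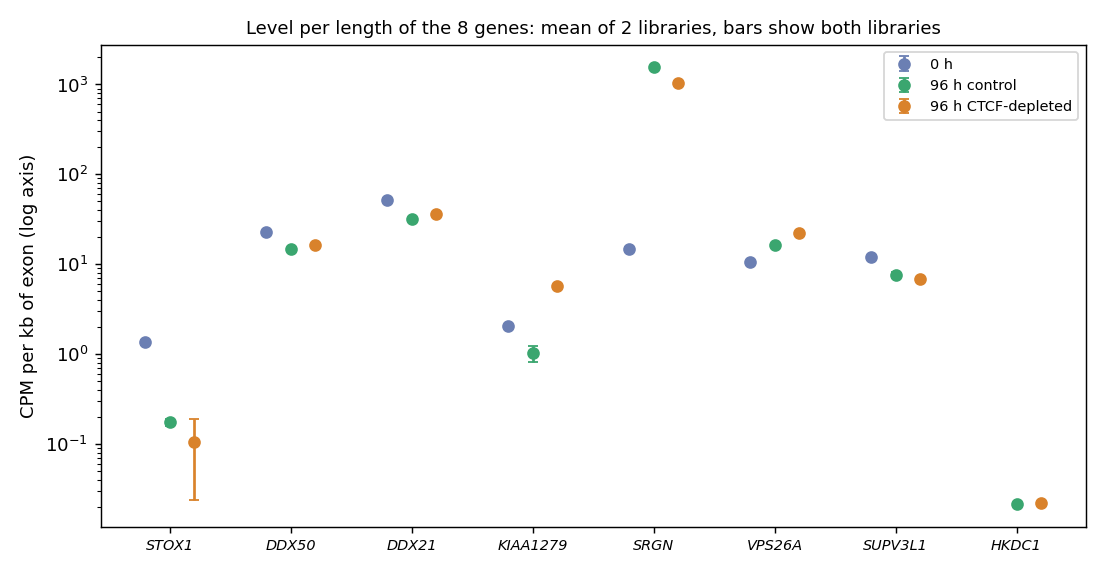
Level per length of each of the 8 genes (y axis, CPM per kb of merged exon, log axis) in chromosome order along the x axis, as the mean of 2 libraries with bars from the lower to the higher library. *HKDC1* at 0 h is at 0 and is not drawn. *SRGN* moves from 14.7 at 0 h to 1567 CPM per kb in control cells, whereas the CTCF-depleted point of *KIAA1279* is at 5.71 CPM per kb above both of its other points.

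Outside the locus, the count table lists 25 genes within 1 Mb of its ends, of which 17 were tested. These genes were not chosen by their values. In control cells, 6 of them were called higher than at 0 h and 3 lower (52.9% in either direction, compared to 48.3% of all genes tested). Higher were *HERC4*, *RUFY2*, *HK1*, *TSPAN15* and *AIFM2*, with log2 fold changes from 0.67 for *RUFY2* to 1.48 for *TSPAN15*, and *C10orf35*, which had 0 and 3 counts at 0 h and 17 and 15 counts in control cells. *C10orf35* passed the filter on low counts through its counts at 96 h, where it is high. It could therefore only be called higher, and nothing is read from its place among the 6. Lower were *DNA2*, a nuclease-helicase of DNA replication (-1.54), *PPA1*, a pyrophosphatase (-1.47), and *H2AFY2*, which encodes a macroH2A histone variant (-1.32).

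After CTCF depletion, 1 of the 17 flanking genes was called higher and 5 lower than in control cells (35.3% in either direction). Of all genes tested, 5.41% were called higher and 7.03% lower, 12.4% in either direction. *TYSND1*, a peroxisomal protease whose gene lies on the minus strand and ends 1049.88 kb from the start of *SRGN*, rose by 0.99 on the log2 scale (standard error 0.11, adjusted p = 5.75e-11, edgeR). The lower genes were *PBLD* (-2.03, standard error 0.34, adjusted p = 1.64e-06), *RUFY2* (-1.37, standard error 0.11, adjusted p = 2.91e-15), *H2AFY2* (-1.34, standard error 0.11, adjusted p = 9.46e-15), *DNA2* (-0.65, standard error 0.10, adjusted p = 2.90e-07) and *TSPAN15* (-0.62, standard error 0.17, adjusted p = 0.00343). The *PBLD* counts were 44 and 53 in control and 12 and 11 in CTCF-depleted cells. The call of *TSPAN15* was lost when any of the 4 libraries was left out, and that of *DNA2* without control replicate 2 (-0.52) or without CTCF-depleted replicate 1 (-0.596). Exons of *RUFY2* overlap those of *HNRNPH3*, and those of *H2AFY2* overlap *AIFM2*, so that their counts may share reads. The genes next to the locus were not called after CTCF depletion: the log2 difference was -0.12 (adjusted p = 0.0699, edgeR) for *CCAR1*, 35.2 kb to the left, and -0.24 (adjusted p = 5.64e-04, edgeR) for *HK1*, 2.43 kb to the right.

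Genes that act together with the products of the locus were examined in lists chosen from general knowledge. Of 20 tested genes that build the glycosaminoglycan chains of serglycin, 7 rose and 3 fell during conversion, with a median log2 fold change of 0.31. Of all genes tested, 25.4% rose and 22.9% fell, with a median of 0.02. *DSE*, a dermatan sulfate epimerase, rose from 11.3 ± 0.426 to 128 ± 8.30 CPM, *CSGALNACT2*, which starts the chondroitin chain, from 37.8 ± 1.74 to 295 ± 9.34 CPM, and *CSGALNACT1*, of the same function, from 2.26 ± 0.0136 to 24.4 ± 1.73 CPM. After CTCF depletion, 2 of the 20 genes rose and 3 fell, with a median of 0.05. Of all genes tested, 5.41% rose and 7.03% fell, with a median of -0.03. *CSGALNACT1* fell by 1.07 on the log2 scale (adjusted p = 2.30e-09, edgeR) to 11.6 ± 0.0421 CPM. The sulfotransferase *CHST3* fell from 2.44 ± 0.211 to 0.878 ± 0.0685 CPM, and its mean at 0 h was 0.127 CPM. *CHST3* passed the filter on low counts through the control libraries, where it is high. This favours a rise in conversion and a fall after CTCF depletion. Its fall is therefore given without a p, and nothing is read from its place among the 7 rising or the 3 falling genes. DESeq2 called 1 gene of this list higher and 1 lower, *CSGALNACT1*, and did not call *CHST3*.

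Of 8 tested genes for the cargo of serglycin and its receptor CD44, 7 were called higher in conversion, compared to 25.4% of all genes tested. Nothing is read from this count, since *MMP9*, *ELANE*, *LYZ*, *CCL3* and *CXCL8* had at most 6 counts in each 0 h library and passed the filter through their counts at 96 h, where they are high. The fitted median log2 fold change of the list was 6.90, and 4.61 with *MMP9* and *ELANE*, which had no count at 0 h, set to 3 counts per library there. *LYZ*, lysozyme, had 3 and 6 counts at 0 h and 4527 ± 185 CPM in control cells, and is also among the macrophage markers. *CD44* rose from 131 ± 3.78 to 630.1 ± 16.5 CPM. After CTCF depletion, the chemokine gene *CCL3* rose from 8.71 ± 0.662 to 16.4 ± 0.712 CPM and the cytokine gene *TNF* from 7.93 ± 1.23 to 16.7 ± 0.723 CPM (adjusted p = 8.10e-06 and 1.62e-07, edgeR). No gene of the list was called lower by edgeR or DESeq2, and 2 had an unadjusted p under 0.05 in that direction; the list median was 0.36.

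Of 7 tested kinesins of the families that the *KIAA1279* product binds, 2 fell after CTCF depletion, compared to 7.03% of all genes tested. None was called higher by edgeR or DESeq2, and the median log2 fold change was -0.28, compared to -0.03 for all genes tested; at an unadjusted p under 0.05, 6 were lower and 0 higher. *KIF14*, a kinesin of cytokinesis, fell from 83.7 ± 0.802 to 51.8 ± 0.905 CPM (adjusted p = 1.37e-11, edgeR). *KIF18A*, which acts on chromosome alignment in mitosis, fell from 34.9 ± 4.70 to 20.1 ± 0.791 CPM (adjusted p = 2.75e-09, edgeR). During conversion, *KIF13A* and *KIF13B* rose by log2 fold changes of 2.03 and 1.83 and *KIF15* fell by 1.00 on the log2 scale.

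**Figure D4:**
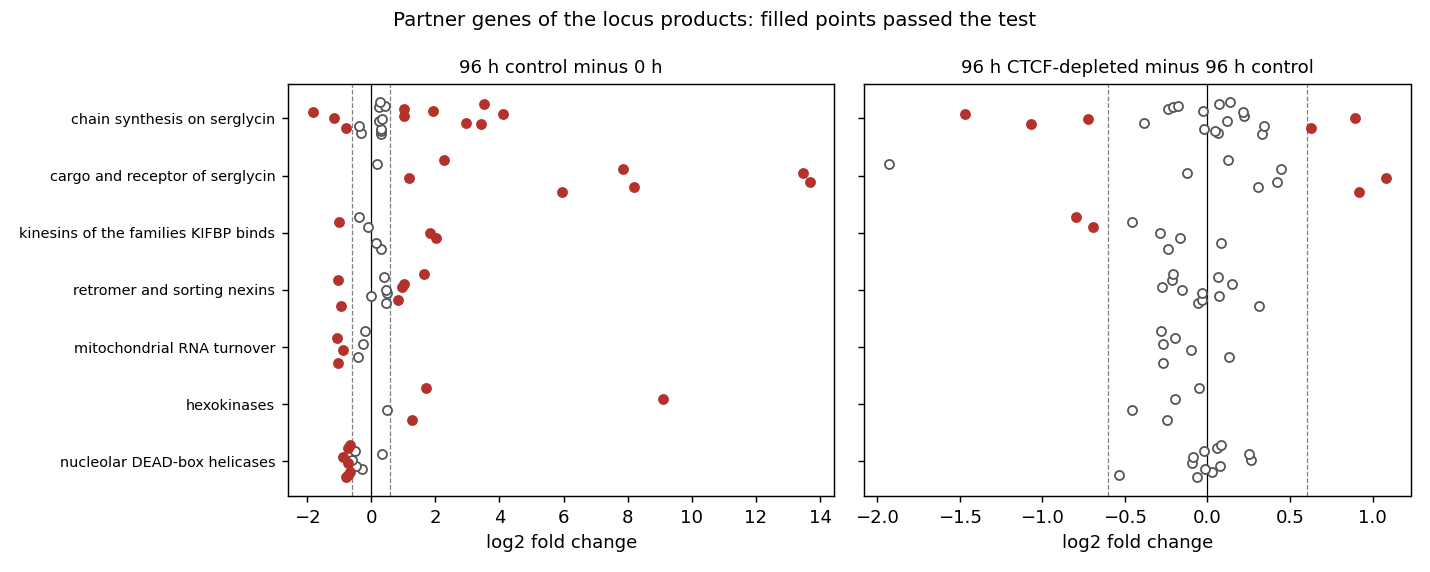
Log2 fold change (x axes) of every tested gene in the 7 lists of genes that act with the products of the locus (y axis), for conversion in control cells (left) and CTCF depletion at 96 h (right). Red points were called, which takes both an adjusted p under 0.01 and a log2 fold change past the threshold of 0.6 (dashed lines). Open points missed either or both of these limits. The right panel has red points only in the lists for serglycin chains, serglycin cargo and kinesins.

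Of 11 tested genes of the retromer and its sorting nexins, the partners of *VPS26A*, 4 rose (*SNX27*, *SNX3*, *SNX2* and *VPS29*, with log2 fold changes from 0.85 to 1.63) and 2 fell during conversion, compared to 25.4% and 22.9% of all genes tested. The falling genes were *SNX5* (-1.04) and *VPS26B* (-0.93), the paralog of *VPS26A*, which went from 70.6 ± 0.846 to 36.9 ± 3.03 CPM. *VPS26A* and *VPS26B* thus moved in opposite directions while cells converted. After CTCF depletion, neither edgeR nor DESeq2 called any of the 11 genes, 2 were higher and 4 lower at an unadjusted p under 0.05, and the median was -0.04.

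Among the partners of *SUPV3L1*, 3 of 6 genes of mitochondrial RNA turnover fell during conversion, namely *PNPT1* (-1.03), *SLIRP* (-1.05) and *REXO2* (-0.88), compared to 22.9% of all genes tested. Of 12 nucleolar DEAD-box helicases, to which *DDX21* and *DDX50* are related, 7 fell, with *DDX51* (-0.88), *DDX10* (-0.78) and *DDX18* (-0.74) among them. These helicases are set beside the same 22.9%. The median log2 fold change was -0.65 in both lists. Neither edgeR nor DESeq2 called a gene of either list higher, and at an unadjusted p under 0.05 the genes that were higher numbered 0 and 1. Of 4 tested hexokinases, 3 were called higher in conversion, compared to 25.4% of all genes tested: *HK3* from 0.23 ± 0.113 to 124 ± 1.198 CPM, *ADPGK* by a log2 fold change of 1.70 and *HK1* by 1.28. *HK3*, with 0.23 CPM at 0 h, passed the filter through its counts at 96 h, where it is high. This favours a rise in conversion, and nothing is read from its place among the 3. *HK1* is also among the flanking genes called higher in conversion, so that the same rise is listed in both places. After CTCF depletion, edgeR and DESeq2 called 0 genes in these 3 lists. At an unadjusted p under 0.05, the higher and lower genes numbered 1 and 3 in mitochondrial RNA turnover, 2 and 1 among the helicases, and 0 and 3 among the hexokinases, with medians of -0.23, 0.0064 and -0.22.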

How the data were processed

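The authors made the values from ribosomal RNA-depleted, stranded total RNA libraries, with 2 biological replicates per condition. Per the labels and the study's methods, reads were aligned to hg38 with STAR 2.6.1d in the nf-core/rnaseq pipeline and counted over protein-coding exons with featureCounts 2.0.6, and the authors deposited raw gene counts without normalization. The annotation release and the strand setting of the counting are not given in the sources used here. The table also lists other gene types.

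The analysis used edgeR 4.0.16 (R 4.3.3): filterByExpr, TMM scaling and a quasi-likelihood fit of all 6 libraries with condition as the only term. The Benjamini-Hochberg adjustment ran over 14758 genes, with the thresholds that the study states. The prior degrees of freedom were 51.7 and the common biological coefficient of variation was 3.96%. On simulated counts for 14758 genes, edgeR recovered 150 of 150 genes changed at least 2-fold, with 0 false calls, in each comparison. These counts were drawn with the spread that edgeR itself had estimated, and genes not picked for a change were left unchanged. The outcome was thus largely set in advance, and nothing is read from it on the error rate in the real libraries. No recovery is given for genes with few counts, such as *STOX1*, or for smaller differences, and nothing is read from these numbers for such genes. Replicates differed by more than sampling noise (chi-square per degree of freedom 2.81, 1.94 and 1.74) and were used as separate samples.

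Positions, exon lengths and promoters came from GENCODE release 44 and RefSeq on hg38, with older symbols matched to current ones. Python 3.11.15, with the packages pandas 2.3.3 and numpy 2.4.6, made the summaries, and matplotlib 3.10.9 the plots. The locus genes and all lists were chosen with earlier results of these data known. Genes named are the 8 locus genes, flanking genes within 1 Mb that were called or lie next to the locus, at most 4 called genes of each list in a comparison, and the 5 genes with the profile nearest to *SRGN* and to *KIAA1279*. *VPS26B*, *C10orf35* and further genes of the serglycin cargo list were named after their values were seen, because a value turned on them. The alternatives were DESeq2 1.42.0, other scalings, filters and thresholds, a fit of 4 libraries, the replicate number as a block, a 500 kb window, the longest transcript as length, and leaving out each library. Counting error is the only error that the limit of 3 counts covers.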

Additional observations from a re-analysis of the deposited data

How the results depend on the processing

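The direction of all 7 tested locus genes was the same in both comparisons under every alternative in which the gene was tested, except for *STOX1* after CTCF depletion, which reversed to 0.16 without CTCF-depleted replicate 1 and was -2.70 without replicate 2. The log2 difference of *KIAA1279* after CTCF depletion ranged from 2.25 to 2.83 and that of *SRGN* from -0.59 to -0.54, and during conversion the values ranged from -1.35 to -0.73 and from 6.62 to 6.79. The smaller differences after CTCF depletion moved with the setting. They ranged from 0.21 to 0.25 for *DDX21*, 0.43 to 0.48 for *VPS26A*, 0.13 to 0.21 for *DDX50* and -0.22 to -0.0094 for *SUPV3L1*. With total counts in place of TMM, the median log2 fold change of all genes in conversion moved from 0.02 to -0.10. In conversion, the locus genes called higher numbered 1 in place of 2 with total counts only, 1 without a filter on low counts and 1 at an absolute log2 fold change above 1, where 1 gene was called lower in place of 5. *VPS26A* was the gene lost, at 0.52, 0.599 and 0.64. Leaving out 1 library gave 1 to 2 higher and 3 to 5 lower locus genes. After CTCF depletion, the locus genes below the fold threshold, 1 with all data, numbered 0 with at least 10 counts in every library, 0 in the fit of 4 libraries, 0 at an absolute log2 fold change above 1 and 0 to 1 when a library was left out; the gene concerned was *STOX1*.

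Flanking genes lower in conversion, 3 with all data, numbered 6 with 0.05 as the limit of adjusted p and no fold threshold and 1 within 500 kb. After CTCF depletion, the higher flanking gene became 3 genes with that limit, 0 at an absolute log2 fold change above 1 and 0 within 500 kb, and the 5 lower genes became 3 at an absolute log2 fold change above 1 and 3 to 4 when a library was left out. For serglycin chain synthesis after CTCF depletion, DESeq2 called 1 gene higher and 1 lower in place of 2 and 3. Per kb of the longest transcript, control levels were 15.9 CPM for *DDX50*, 61.4 for *DDX21*, 1.75 for *KIAA1279*, 20.02 for *VPS26A*, 13.2 for *SUPV3L1* and 0.0248 for *HKDC1*. This left the order of genes at 96 h as it was, whereas at 0 h *SUPV3L1* (20.9) lay above *SRGN* (14.7). The distance of *SRGN* from *DDX21* depended on the length used. Per kb of the longest transcript, it was 25.5-fold in control cells in place of 49.5-fold, and 14.6-fold in CTCF-depleted cells in place of 28.4-fold.

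No effect shared by replicates of the same number was seen across genes. The differences between replicates 1 and 2 had correlations across genes of -0.0194, 0.0109 and -0.0294 between the groups. Whether replicates of the same number were grown or processed together is not given in the labels, and these correlations cannot decide it. With the replicate number as a block, 2 locus genes were called higher and 5 lower in conversion, 6 and 3 flanking genes in conversion, 1 and 5 flanking genes after CTCF depletion, and 1 locus gene lay past the fold threshold in each direction after CTCF depletion. Depth limits the statements on *STOX1* and *HKDC1*, which have at most 8 counts per library at 96 h.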

Other observations

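The genes with the profile over the 6 libraries nearest to that of *SRGN*, by the Euclidean distance between centred log2 CPM values, were *CDA* (0.210), *CEACAM4* (0.313), *LYST* (0.317), *CSF3R* (0.326) and *C9orf139* (0.337). *CDA* and *CEACAM4* were at 0.0 CPM at 0 h, so that their distances depend on the prior count of 2 used for the log2 values. The fitted log2 fold change in conversion was 10.5 for *CDA*, compared to 6.74 for *SRGN*. *LYST*, a regulator of lysosome-related organelles, was at 21.7 CPM at 0 h, 1965 CPM in control cells and 1580 CPM in CTCF-depleted cells. *CSF3R*, the receptor of the granulocyte growth factor, was at 0.661, 71.8 and 52.7 CPM. With a prior count of 0.5 in place of 2, 3 of the 5 genes were among the nearest, and with Pearson's r in place of the distance 0 of them.

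By the same distance, the genes nearest to *KIAA1279* were *SUGCT* (0.472), *PXN-AS1* (0.548), *CACNA2D1* (0.633), *OIT3* (0.654) and *BCRP3* (0.658), of which the highest, *PXN-AS1*, reached 7.85 CPM in CTCF-depleted cells. In control cells, *CACNA2D1*, *OIT3* and *BCRP3* were at 0.181 CPM or less, so that their profiles rest on few counts. With a prior count of 0.5, 2 of the 5 genes were among the nearest, and with Pearson's r 1 of them.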
